A study of Mus musculus with 28 samples.

Results

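The 39 genes described here encode the proteins that copy DNA in S phase and the enzymes that make its building blocks. They were taken by symbol from the deposited table of read counts, in which each of the 39 matched 1 of 54429 gene identifiers, and were read in all 28 libraries. O9-1 is an established line of mouse cranial neural crest cells, the embryonic cells that form much of the skeleton of the face. The libraries fall into 8 groups, 4 media at 2 oxygen levels, with 4 libraries in each group at 21% oxygen and 3 in each group at 0.5% oxygen. Proliferating cells grew in DMEM conditioned by STO feeder cells with 15% fetal calf serum, 25 ng/ml bFGF and 5 ng/ml LIF. The chondrocyte group spent 3 days in osteogenic medium and then 7 days as micromasses on matrigel in 5% serum with 10 ng/ml TGF-beta3, 50 ng/ml BMP-2, ITS and 0.1 µM dexamethasone. The osteoblast group spent 10 days in 10% serum with 100 ng/ml BMP-2, 0.1 µM dexamethasone and beta-glycerophosphate. The smooth muscle group spent 3 days in DMEM with 10% serum. All groups come from this one line, so each comparison is between cultures of the same cells, and no group is a primary tissue.

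Before S phase the origin recognition complex, with CDC6 and CDT1, loads the MCM2-7 helicase on DNA, and geminin binds CDT1 to prevent a second loading. CDC45 and the GINS complex then switch the helicase on, DNA polymerase alpha and primase start each strand, polymerases delta and epsilon extend it on the sliding clamp PCNA, and FEN1 and ligase 1 join the fragments of the lagging strand. Ribonucleotide reductase, made of the subunits RRM1 and RRM2, thymidylate synthase and thymidine kinase 1 supply deoxynucleotides. Many of these genes are known targets of E2F transcription factors, which RB family proteins hold in check in cells that have left the cell cycle. Ribonucleotide reductase needs molecular oxygen to form the radical in RRM2 on which catalysis depends, a textbook property stated here as background.

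Promoters of 6 members are shown because E2F factors are the known common regulators of these genes and because Rrm1 and Rrm2 later stand apart from the rest in the counts. The sequences are RefSeq promoters of GRCm38.p6, the 180 bases that end at the annotated start, written 5′ to 3′ in the direction of the gene. GENCODE vM21 starts Cdc6 farther upstream, at chr11:98907801, so the Cdc6 stretch and its E2F letters lie inside the gene by that annotation. Capitals mark E2F letters (TTTGGCGC, TTTCCCGC, TTTGCCGC or TTTCGCGC on either strand) and the CCAAT box (CCAAT, or ATTGG on the other strand). In order they lie at chr4:108579274-108579453 (plus strand), chr11:98907971-98908150 (plus strand), chr8:75109329-75109508 (plus strand), chr1:128359706-128359885 (minus strand), chr7:102441515-102441694 (plus strand) and chr12:24708074-24708253 (plus strand).
Orc1: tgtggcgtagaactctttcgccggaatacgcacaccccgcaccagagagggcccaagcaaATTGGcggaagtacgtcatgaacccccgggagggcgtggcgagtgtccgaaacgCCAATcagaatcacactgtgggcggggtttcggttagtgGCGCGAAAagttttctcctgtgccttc
Cdc6: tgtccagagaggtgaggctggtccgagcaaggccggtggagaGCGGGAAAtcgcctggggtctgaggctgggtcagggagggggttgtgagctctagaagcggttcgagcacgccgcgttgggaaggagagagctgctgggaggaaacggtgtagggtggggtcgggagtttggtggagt
Mcm5: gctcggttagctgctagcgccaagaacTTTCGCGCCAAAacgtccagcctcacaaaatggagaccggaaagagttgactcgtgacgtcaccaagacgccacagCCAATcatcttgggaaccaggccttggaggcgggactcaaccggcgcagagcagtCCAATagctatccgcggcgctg
Mcm6: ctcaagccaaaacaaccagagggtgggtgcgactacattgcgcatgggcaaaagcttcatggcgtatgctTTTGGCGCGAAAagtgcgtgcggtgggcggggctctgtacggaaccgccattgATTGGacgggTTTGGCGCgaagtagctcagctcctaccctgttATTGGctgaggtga
Rrm1: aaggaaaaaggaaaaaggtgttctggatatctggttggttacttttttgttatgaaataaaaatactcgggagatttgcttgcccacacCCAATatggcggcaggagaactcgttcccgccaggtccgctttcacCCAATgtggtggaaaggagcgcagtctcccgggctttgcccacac
Rrm2: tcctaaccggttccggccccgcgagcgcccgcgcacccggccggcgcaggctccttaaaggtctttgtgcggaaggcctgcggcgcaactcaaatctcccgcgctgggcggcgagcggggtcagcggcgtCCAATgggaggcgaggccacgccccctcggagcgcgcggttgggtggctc
Of the 39 members, 31 had an entry in the RefSeq promoter table, 5 of them with more than 1 start. Within 250 bases before a start, E2F letters were present in 8 of the 31 members (25.8%), against 583 of 27025 genes (2.2%) in the whole table. The 8 were Orc1, Cdc6, Mcm5, Mcm6, Mcm7, Gins3, Pola1 and Rfc3. In Mcm5, and at the farther site in Mcm6, 2 matches on opposite strands overlap. The CCAAT box was found in 19 of 31 members (61.3%) and 37.5% of genes, and the letters TTTGAA or TTCGAA of the CHR element in 7 of 31 members (22.6%) and 19.6% of genes. Rrm1 held 2 CCAAT boxes and Rrm2 held 1, with no E2F letters of this strict form in the window. These matches describe letters only.

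Levels are CPM, counts per 1000000 counts of a library after trimmed-mean scaling over the 28 libraries. Library totals lay between 19.87 and 64.69 in units of 1000000 counts. Marker levels were compared with the labels, and they did not match them in every group. Of 7 neural crest markers, 6 had counts in every group, and their summed level was 1076 to 1113 CPM in proliferating libraries at 21% oxygen. At that oxygen level the sum was higher in osteoblast (2481 to 3110 CPM) and smooth muscle libraries (2510 to 2606 CPM). In chondrocyte libraries there it was 999.4 to 1226 CPM. Sox10 was at 0 in 7 of the 8 groups. Chondrocyte markers summed to 6966 to 14090.0 CPM in chondrocyte libraries at 21% oxygen and 5304 to 5567 CPM at 0.5%, while Matn1 was at 0 in 5 of the 8 groups. At 21% oxygen these markers also summed to 1755 to 2702 CPM in osteoblast and 949.6 to 1105 CPM in smooth muscle libraries. Their sum was 22.17 to 30.64 CPM in proliferating libraries there. Osteoblast markers were highest in the chondrocyte libraries (1104 to 2598 CPM at 21% oxygen). In osteoblast libraries they summed to 64.7 to 147 CPM at 21% oxygen and 373 to 402 CPM at 0.5%. In proliferating libraries they summed to 61.31 to 71.15 CPM and 47.02 to 47.49 CPM, so these ranges overlap at 21% oxygen. At 21% oxygen the bone gene Sp7 stood at 1.15, 0.67, 1.36 and 45.4 CPM in osteoblast libraries 1 to 4, so replicate 4 was far above the others. Smooth muscle markers summed to 3324 to 3758 CPM in smooth muscle libraries at 21% oxygen but to 28.5 to 42.4 CPM at 0.5%, no more than the 36.3 to 43.3 CPM of proliferating libraries there. They were as high in osteoblast medium at 21% oxygen (3065 to 4684 CPM). The groups are therefore named below by medium and oxygen. Markers of endothelial, blood, skeletal muscle, neuronal and adipocyte cells summed, list by list, to at most 45.4 CPM in any library, with Stmn2 in chondrocyte medium, Cd68 in smooth muscle medium at 0.5% oxygen and Fabp4 in osteoblast medium at 0.5% oxygen making up most of it, and their part in the results was not tested. The summed level of 8 hypoxia response genes was 1095 to 1164 CPM in proliferating libraries at 21% oxygen and 5262 to 5531 CPM at 0.5%.

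Libraries of 2 groups stand apart. Mitochondrial ribosomal RNA took 11.6% to 13.3% of the counts in smooth muscle medium at 0.5% oxygen and less than 0.1% in every other library, and the 10 most counted genes took 27.1% to 28.5% there. Results in that group depend on the scaling. CPM levels there carry the trimmed-mean factor, and the changes with scaling by library size alone are given beside them. Replicate 4 of osteoblast medium at 21% oxygen had a higher member median than replicates 1 to 3 (-3.16 to -2.58 over the 4 libraries, on the log2 scale explained below), and the values that it moves most are given with and without it.

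Proliferating cells at 21% oxygen had the highest mean level of 37 of the 39 members. The exceptions were Rrm1, highest in osteoblast medium at 0.5% oxygen, and Rfc4, highest in smooth muscle medium at 0.5% oxygen, and both exceptions rest on the trimmed-mean scaling. Per 1000000 counts of the library total alone, proliferating cells at 21% oxygen had the highest mean of all 39, with Rrm1 at 372 against 324 in osteoblast medium at 0.5% oxygen. Osteoblast medium at 21% oxygen had the lowest mean of 20 members, or 15 per library total. For osteoblast medium at 0.5% oxygen these counts were 12 and 6, and for smooth muscle medium at 0.5% oxygen 2 and 14. Together the 39 genes took 0.435% to 0.473% of all counts in proliferating libraries at 21% oxygen. At 0.5% oxygen that share was 0.202% to 0.219%. In chondrocyte medium it was 0.0937% to 0.129% at 21% and 0.0741% to 0.0789% at 0.5% oxygen, and in osteoblast medium 0.0685% to 0.0991% and 0.101% to 0.106%. The smooth muscle shares were 0.113% to 0.122% and 0.0625% to 0.0685%. The median member, expressed as log2 level relative to its own mean in proliferating libraries at 21% oxygen, lay at -1.09 to -1.07 in the 3 proliferating libraries at 0.5% oxygen. It lay at -2.14 to -1.67 in chondrocyte medium, -2.32 to -2.13 in smooth muscle medium and -3.16 to -2.58 in osteoblast medium at 21% oxygen, so osteoblast libraries at that oxygen level lay lowest and did not overlap with any other medium there. In bulk RNA, fewer cells in S phase and less of these transcripts per cell cannot be told apart.

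**Figure D1:**
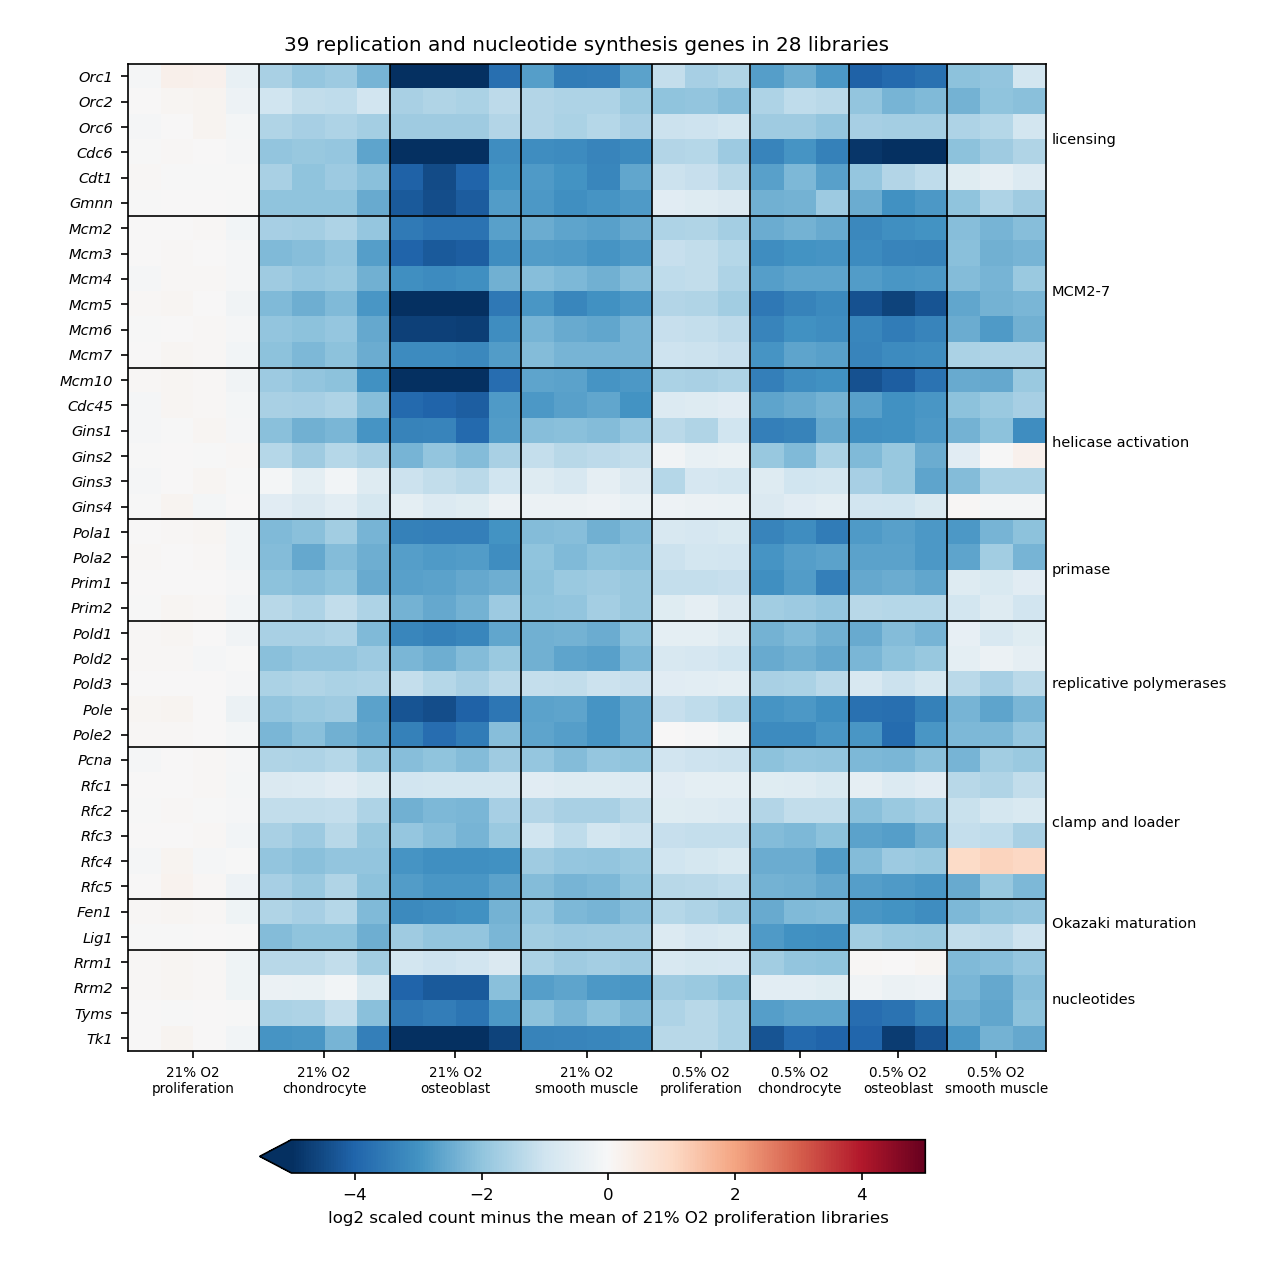
Each row is 1 of the 39 members, grouped by role, and each column 1 of the 28 libraries, and colour gives the log2 scaled count minus the gene's mean in proliferating libraries at 21% oxygen. Outside proliferating cells at 21% oxygen most cells of the picture are blue (lower), darkest in osteoblast medium at 21% oxygen. Values below -5 (Orc1, Cdc6, Mcm5, Mcm10 and Tk1) take the end colour. Rrm1 and Rrm2 in osteoblast medium at 0.5% oxygen and, with this scaling, Rfc4 in smooth muscle medium at 0.5% oxygen are pale or red. Other pale cells include Rrm2 in chondrocyte medium, Gins4 in every group and Pole2 in proliferating cells at 0.5% oxygen.

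At 21% oxygen each of the 3 differentiation media was compared with proliferating cells, the question being how far the replication genes go down as the cells leave proliferation conditions. A gene was called when its edgeR quasi-likelihood test, adjusted over all genes tested by Benjamini-Hochberg, gave an adjusted p under 0.05. Values after ± in log2 changes are standard errors, from 4 libraries a group at 21% and 3 at 0.5% oxygen. The 3 comparisons at each oxygen level share their proliferating libraries. In chondrocyte medium 38 of 39 members fell and 0 rose, with a median log2 fold change of -1.79. Of all 14360 genes tested, 37.2% were called lower and 37.7% higher. The member not called was Gins3 (-0.25 ± 0.13 log2), which was called without chondrocyte replicate 1 (-0.32). In osteoblast medium 39 of 39 fell and 0 rose, median -2.98, against 37.8% lower and 40.9% higher of 14434 genes. In smooth muscle medium 39 of 39 fell and 0 rose, median -2.14, against 38.9% lower and 40.8% higher of 14582 genes. With scaling by library size alone, the chondrocyte comparison called 27.2% of all genes higher and 51.2% lower, and 0 members higher and 39 lower.

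At 0.5% oxygen the same comparison was made within low oxygen. In chondrocyte medium 36 members fell and 2 rose, median -1.53, against 34.6% lower and 34.9% higher of 14347 genes. The 2 that rose were Rrm2 (1.33 ± 0.07) and Orc2 (0.64 ± 0.10), and Gins3 was at 0.20 ± 0.18 and not called. In osteoblast medium 35 fell and 2 rose, median -1.51, against 35.1% lower and 36.2% higher of 14338 genes. The 2 that rose were the subunits of ribonucleotide reductase, Rrm2 (1.64 ± 0.08) and Rrm1 (0.89 ± 0.06), while Orc2 (-0.15 ± 0.12) and Rfc1 (-0.06 ± 0.08) were not called, though both were with scaling by library size alone (-0.38 and -0.29). In smooth muscle medium 23 fell and 5 rose, median -0.59, against 36.2% lower and 33.8% higher of 14080 genes. Scaling by library size alone gave 1 member higher and 38 lower in that last comparison, with a member median of -1.86 where the median of all genes was -1.35, and called 12.4% of all genes higher and 70.6% lower. For chondrocyte and osteoblast medium that scaling gave 2 members higher and 36 lower, with 23.4% of all genes higher and 50.2% lower, and 2 members higher and 37 lower, with 27.9% of all genes higher and 45% lower.

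Low oxygen was then compared with 21% oxygen within each medium. In proliferating cells 38 of 39 members fell and 0 rose, median -1.03, against 32.3% lower and 33.1% higher of 14156 genes. The member not called was Pole2 (-0.03 ± 0.07). In chondrocyte medium 29 fell and 0 rose, median -0.63, in a comparison with far fewer called genes in all, 11.8% lower and 10.4% higher of 14205. The 10 members not called there were Orc2, Orc6, Gmnn, Gins1, Gins2, Gins4, Pold3, Rfc1, Rfc2 and Rrm2, with log2 changes between -0.63 (Gins1) and 0.08 (Gins4). Gins1 was called without replicate 3 at 0.5% oxygen (-0.99), and Rrm2 without replicate 4 at 21% (-0.31). In osteoblast medium 10 members rose and 4 fell, median 0.25, against 27.0% higher and 27.3% lower of 14533 genes, so the share of members called higher was near that of all genes and the share called lower was smaller. Without replicate 4 of osteoblast medium at 21% oxygen the same comparison gave 21 members higher and 4 lower, median 0.48, against 32.9% of all genes higher and 32.7% lower. In smooth muscle medium 24 members rose and 4 fell, median 0.53, against 35.4% higher and 40.2% lower of 14914 genes, but with scaling by library size alone the direction turned, with 4 members higher and 28 lower and a median of -0.83 where that of all genes was -1.49. That scaling called 13.4% of all genes higher and 72.6% lower. For chondrocyte and osteoblast medium it gave 0 members higher and 31 lower, with 7.68% of all genes higher and 16.4% lower, and 6 members higher and 5 lower, with 20.9% of all genes higher and 35.8% lower.

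Osteoblast and chondrocyte medium were also compared with each other. At 21% oxygen 31 members were lower in osteoblast medium and 1, Rrm1, was higher (0.54 ± 0.11), median -0.89, against 28.6% lower and 31.1% higher of 14319 genes. The 7 not called were Orc6, Gins4, Pold2, Pold3, Pole2, Rfc3 and Lig1, between -0.68 (Pole2) and 0.18 (Pold3). Without osteoblast replicate 4, 4 of these were called, Pole2 (-1.18), Pold2 (-0.31), Rfc3 (-0.42) and Lig1 (0.26), and Rfc3 was also called without chondrocyte replicate 4 (-0.44). At 0.5% oxygen 16 members were lower and 10 higher in osteoblast medium, median -0.25, against 28.6% lower and 29.0% higher of 14116 genes. The largest of the rises was Rrm1 (1.96 ± 0.09) and the largest of the falls Cdc6 (-1.97 ± 0.32). With scaling by library size alone the 21% comparison gave 4 members higher and 26 lower, with 40% of all genes higher and 20.9% lower.

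**Figure D2:**
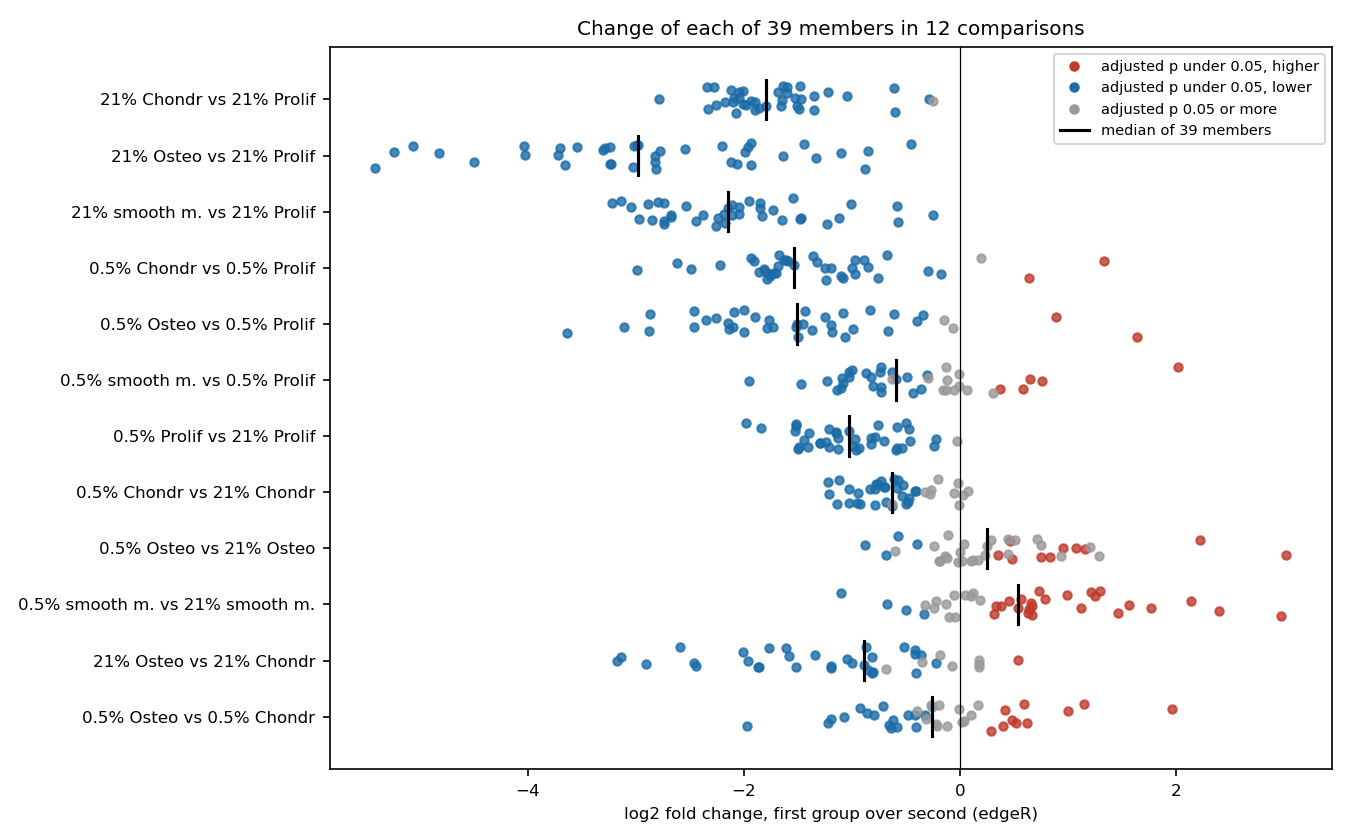
Each point is 1 of the 39 members in 1 of 12 comparisons, with the log2 fold change of the first group over the second on the horizontal axis, coloured by call, and a black bar at the median of the members. The 3 media at 21% oxygen lie wholly left of 0 (medians -1.79, -2.98 and -2.14), while low oxygen against 21% oxygen in osteoblast and smooth muscle medium straddles 0; the smooth muscle position depends on scaling as stated in the text.

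Whether the change from proliferating cells differed between oxygen levels was tested as an interaction, the change at 0.5% oxygen minus that at 21% oxygen. It sets the change with low oxygen in a medium against that in proliferating cells, where nearly all members fell. A positive difference is thus not by itself a rise with low oxygen in the medium. In chondrocyte medium, for example, no member was called higher at low oxygen. In chondrocyte medium the difference was positive for 19 members and negative for 2, median 0.47, against 21.6% and 21.9% of 15310 genes. The largest positive differences were Orc2 (1.72 ± 0.14) and Rrm2 (1.66 ± 0.16), and the 2 negative ones were Pole2 (-0.68 ± 0.16) and Pola1 (-0.46 ± 0.16). The call for Pola1 was lost without any 1 of 6 libraries, replicate 4 of proliferating cells and 3 of chondrocyte medium at 21% oxygen and replicates 1 and 3 of both at 0.5%, with log2 differences of -0.45 to -0.33. In osteoblast medium it was positive for 34 members and negative for 0, median 1.32, against 28.9% and 25.3% of 15486 genes. Rrm2 (4.90 ± 0.65) and Cdt1 (3.40 ± 0.36) differed most with all libraries, and Gins2, Gins3, Gins4, Pole2 and Cdc6 were not called, at 0.08, 0.16, -0.11, -0.08 and 0.90. Without replicate 4 of osteoblast medium at 21% oxygen Rrm2 was at 5.76, Mcm10 at 4.25 was above Cdt1 at 3.81, and Cdc6 was called at 2.29. In smooth muscle medium the difference was positive for 36 and negative for 0, median 1.52, against 34.9% and 35.5% of 15640 genes, whereas scaling by library size alone gave 17 members higher and 9 lower, median 0.19, with 12.9% of all genes higher and 64.7% lower. Between osteoblast and chondrocyte medium the effect of low oxygen was more positive in osteoblast medium for 23 members and less so for 1, Gins4 (-0.48 ± 0.16), median 0.91, against 20.1% and 17.7% of 15199 genes. The call for Gins4 was lost without any 1 of 5 libraries, replicate 4 of chondrocyte medium at 21% oxygen and, at 0.5%, replicates 2 and 3 of chondrocyte and 1 and 2 of osteoblast medium, with log2 differences of -0.46 to -0.42. These interactions share the proliferating or osteoblast libraries with one another, so their counts are not independent.

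**Figure D3:**
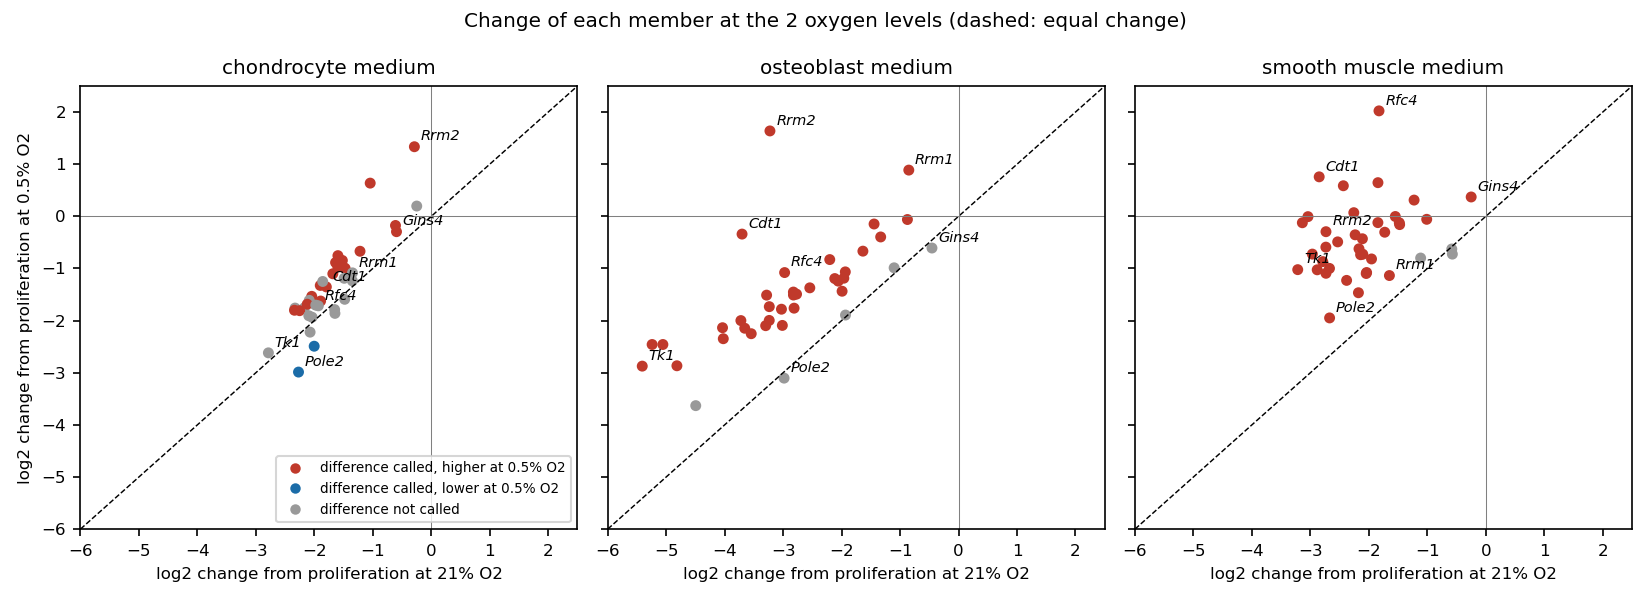
Each point is 1 of the 39 members in 1 medium, with its log2 change from proliferating cells at 21% oxygen on the horizontal axis and at 0.5% oxygen on the vertical axis, coloured by the call on the difference. A member above the line of equal change need not have risen with low oxygen within its medium. In osteoblast medium 34 members lie above the dashed line of equal change as called differences, and Rrm2, Cdt1 and Mcm10 lie farthest above it; the height of the points in smooth muscle medium depends on scaling.

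In each role the library values are shown of the member with the highest mean CPM over all 28 libraries, which need not be the highest in each group. Among the 6 licensing genes this was Cdt1, which brings MCM2-7 to origins. In proliferating cells it stood at 87.3, 84.4, 83.3 and 82.7 CPM at 21% oxygen and 40, 37.7 and 32.7 CPM at 0.5% oxygen. In osteoblast medium it stood at 5.1, 3.83, 5.26 and 10.6 CPM at 21% oxygen, where replicate 4 is the highest, and at 22, 30.5 and 34.8 CPM at 0.5%. The groups in osteoblast medium do not overlap, and the rise at low oxygen was 4.67-fold (2.22 ± 0.33 log2, edgeR adjusted p = 7.69e-04). In chondrocyte medium Cdt1 went the other way, with 27.3, 21, 24.2 and 19.8 CPM at 21% oxygen and 12.9, 17.6 and 12.9 CPM at 0.5% (-0.68 ± 0.15 log2). Cdt1 in smooth muscle medium stood at 11.8, 10.7, 8.7 and 14 CPM at 21% and 56, 62.2 and 53.2 CPM at 0.5% oxygen, a log2 change of 2.40 ± 0.14 that was 1.03 with scaling by library size alone. Within osteoblast medium Cdt1 was thus the licensing gene that rose, while Orc2, a subunit of the origin recognition complex, fell (-0.68 ± 0.12). The other licensing genes were not called there, Orc1 at 1.21 ± 0.78 among them. Without replicate 4 Orc1 was called at 2.28.

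Geminin (Gmnn), which binds CDT1, was at 0.94 ± 0.39 log2 in osteoblast medium between oxygen levels and not called, but it was called at 1.47 without replicate 4 at 21% oxygen. The raw ratio of Cdt1 to Gmnn reads within a library, which no scaling can alter, was 2.46, 2.36, 2.31 and 2.32 in proliferating cells at 21% oxygen and 1.67, 1.63 and 1.5 at 0.5%. In osteoblast medium it was 2.65, 2.31, 2.63 and 2.04 at 21% oxygen and 3.46, 7.04 and 7.05 at 0.5%. The smooth muscle ratios were 2.42, 2.54, 1.88 and 2.82 and 6.38, 5.16 and 5.12, and in chondrocyte medium 3.11, 2.35, 2.71 and 3.16 and 1.94, 2.54 and 1.26. All 6 values of osteoblast and smooth muscle medium at low oxygen lie above every other library, while proliferating libraries at low oxygen lie below all libraries at 21% oxygen. This ratio was chosen after the values were seen and has no test.

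Cdc6, the ATPase that works with CDT1, and Orc1, the subunit of the origin recognition complex that varies with the cell cycle, fell far in osteoblast medium. Cdc6 stood at 27.4, 29, 28.3 and 26.9 CPM in proliferating cells at 21% oxygen and at 0.384, 0.631, 0.373 and 3.24 CPM in osteoblast medium, a fall of 22.5-fold by the fit (-4.50 log2, and -5.91 without replicate 4). Orc1 was at -5.06 log2 there and -6.19 without replicate 4. At 0.5% oxygen Cdc6 fell from 10.2, 10.5 and 7.98 to 0.929, 0.859 and 0.528 CPM, 12.4-fold, the largest fall of any member in that comparison. Orc2 had a different course, with 73.2, 77.2, 80.3 and 61.4 CPM in proliferating cells at 21% oxygen and 17.9, 18.7 and 16.8 CPM at 0.5%, the largest fall of any member between oxygen levels in these cells (3.95-fold). In chondrocyte medium it stood at 36.5, 30.6, 29.8 and 37.3 CPM and 25.1, 29.9 and 28.5 CPM, which overlap. Of the exon bases of Orc2, 29.8% are shared with Nif3l1 on the opposite strand, and whether reads were counted by strand is not given in the sources used here, so Orc2 values carry that uncertainty.

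MCM2-7 is a ring of 6 different subunits in equal number. All 6 fell in each of the 6 comparisons of a medium with proliferating cells, and in proliferating cells at low oxygen. In smooth muscle medium at 0.5% oxygen the median of these falls was -0.67 log2. The size of that median depends on scaling, since the fall of Mcm7 there was -0.35 log2 and -1.63 with scaling by library size alone. Mcm7, with the highest mean over all libraries, stood at 288, 306, 299.5 and 260.3 CPM in proliferating cells at 21% oxygen and 142, 137 and 129 CPM at 0.5%, a fall of 2.04-fold. At 21% oxygen it stood at 68.7, 61.4, 70 and 51.6 CPM in chondrocyte, 32.2, 32.5, 30.5 and 42.1 CPM in osteoblast and 63.6, 57.1, 57.6 and 58 CPM in smooth muscle medium. Osteoblast medium was thus lowest, 8.08-fold under proliferating cells (-3.01 ± 0.11 log2, edgeR adjusted p = 1.17e-08). At 0.5% oxygen the values were 37.5, 46.2 and 44 CPM in chondrocyte, 29.6, 32.6 and 33.8 CPM in osteoblast and 96.2, 98.3 and 99.4 CPM in smooth muscle medium. Between oxygen levels Mcm7 was lower in chondrocyte medium (-0.57 ± 0.11) and not called in osteoblast medium (-0.10 ± 0.12). Mcm7 in smooth muscle medium was higher at low oxygen (0.79 ± 0.08) but lower with scaling by library size alone (-0.58).

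The subunits did not fall by the same amount. In osteoblast medium at 21% oxygen Mcm5 fell by 28.2-fold, from 242, 248, 236 and 203 to 4.09, 4.22, 3.83 and 19.2 CPM, and its replicate 4 stands far above replicates 1 to 3 (-4.82 log2, and -5.83 without it). Mcm4 fell by 7.08-fold and Mcm7 by 8.08-fold. Per exon length the lowest and highest subunits, as mean RPKM, were Mcm2 at 31.5 and Mcm7 at 65.2 in proliferating cells at 21% oxygen. In osteoblast medium at that oxygen level they were Mcm5 at 1.96, a mean raised by replicate 4, and Mcm4 at 8.42. These values rest on annotated exon lengths rather than on the isoforms present.

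Of the 6 genes that activate the helicase, Mcm10 and Cdc45 had large falls in osteoblast medium at 21% oxygen (-5.24 ± 0.56 and -3.55 ± 0.26) and Gins4 a small one. Mcm10, which binds the loaded helicase, fell in osteoblast medium at 21% oxygen from 45.9, 46.8, 46.1 and 38.9 to 0.28, 0.316, 0.644 and 3.11 CPM, where replicate 4 again stands apart (-6.71 log2 without it). In osteoblast medium at 0.5% oxygen it stood at 2.17, 2.51 and 3.45 CPM. The change with low oxygen was not called (1.29 ± 0.76, edgeR adjusted p = 0.186) and was called without replicate 4 (2.69). Gins4, a subunit of the GINS ring that travels with the helicase, stood at 30.7, 34.3, 29.5 and 31.5 CPM in proliferating cells and 22.3, 19.3, 20.9 and 25.9 CPM in osteoblast medium at 21% oxygen. Its fall of 1.37-fold was the smallest of the 39 members there. Across the other groups it stood at 21.1, 19.2, 21.6 and 17.2 CPM in chondrocyte and 25.6, 25.8, 26.6 and 24.1 CPM in smooth muscle medium at 21% oxygen. At 0.5% oxygen it stood at 26.2, 25.8 and 24.9 CPM in proliferating cells, 19.2, 21.5 and 22.3 CPM in chondrocyte, 16.4, 15.8 and 18.3 CPM in osteoblast and 32.4, 29.4 and 29.5 CPM in smooth muscle medium. Its values over the 28 libraries thus all lay between 15.8 and 34.3 CPM with this scaling. Gins4 in smooth muscle medium was at 0.32 log2 between oxygen levels and at -1.05 with scaling by library size alone. Its partners Gins1, Gins2 and Gins3 fell in osteoblast medium at 21% oxygen by 9.43-fold, 3.82-fold and 2.15-fold. Of the exon bases of Gins2, 67.3% lie opposite exons of Gse1, so its values are uncertain.

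All 4 genes of polymerase alpha and primase fell in each medium at 21% oxygen and in chondrocyte and osteoblast medium at 0.5%. Pola1, the catalytic subunit of polymerase alpha, stood at 97.6, 100, 102 and 87.6 CPM in proliferating cells at 21% oxygen and 55.5, 53.4 and 56.5 CPM at 0.5%. In chondrocyte medium it stood at 21.1, 22.8, 28.8 and 19.1 CPM at 21% oxygen and 9.79, 11.3 and 8.51 CPM at 0.5%, a fall of 2.34-fold. In osteoblast medium the order was reversed, with 9.29, 8.95, 9.02 and 12.2 CPM at 21% and 13.6, 14.7 and 13.2 CPM at 0.5% oxygen (0.49 ± 0.14, edgeR adjusted p = 0.0155), a rise no longer called without replicate 2 at 0.5% oxygen (0.45) or with scaling by library size alone (0.33). Pola1 in smooth muscle medium stood at 21.4, 21.8, 18.4 and 20.9 CPM and 13.3, 19.2 and 23 CPM, which overlap (-0.10 ± 0.16, not called), and was called lower with scaling by library size alone (-1.47). Prim2, the large subunit of primase, also rose with low oxygen in osteoblast medium (0.84 ± 0.17), and Pola2 and Prim1 were at 0.12 and 0.04 and not called. The difference between osteoblast and chondrocyte medium in the effect of low oxygen was called for all 4, with Pola1 at 1.70 ± 0.21.

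Among the replicative polymerases Pold2, an accessory subunit of polymerase delta, had the highest mean over all libraries. It stood at 106, 106, 97.1 and 99.5 CPM in proliferating cells at 21% oxygen and 57.9, 56.9 and 51.8 CPM at 0.5%. At 21% oxygen it stood at 24.2, 26, 25.7 and 28.6 CPM in chondrocyte, 20.9, 18.6, 22.7 and 28.4 CPM in osteoblast and 19.2, 16.6, 15.4 and 21.6 CPM in smooth muscle medium. These 3 media lie close together, all at least 3-fold below proliferating cells. At 0.5% oxygen it stood at 18, 19.1 and 17.2 CPM in chondrocyte, 21, 24.6 and 27.3 CPM in osteoblast and 72.7, 83.4 and 74 CPM in smooth muscle medium. The last is 4.4-fold above smooth muscle medium at 21% oxygen (2.14 ± 0.12) and remained higher with scaling by library size alone (0.77). Pold1, the catalytic subunit of polymerase delta, rose with low oxygen in osteoblast medium (0.75 ± 0.20), as did Pold3 (0.47 ± 0.13, not called with scaling by library size alone, 0.31). Pole2, a subunit of polymerase epsilon, was the one member not called between oxygen levels in proliferating cells, with 27.5, 27.6, 26.7 and 24.9 CPM at 21% and 26.7, 25.8 and 22.9 CPM at 0.5%. In the 3 media at 0.5% oxygen Pole2 fell by 7.93-fold in chondrocyte, 8.6-fold in osteoblast and 3.86-fold in smooth muscle medium. The last was -1.95 log2 and -3.23 with scaling by library size alone. Per library total the Pole2 means were 2.91, 2.895 and 3.106 in these media, in that order, and 29.06 in proliferating cells. The order of the media was thus the same, but the gap between them depends on the scaling.

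PCNA, the sliding clamp, is put on DNA by replication factor C, whose large subunit is RFC1 and whose small ones are RFC2 to RFC5. Pcna stood at 198, 209, 215 and 195 CPM in proliferating cells at 21% oxygen and 105, 100 and 96.5 CPM at 0.5%, a fall of 1.96-fold. At 21% oxygen it stood at 71, 69.7, 76.5 and 56 CPM in chondrocyte, 46.9, 50.4, 45.6 and 59.1 CPM in osteoblast and 53.6, 45.8, 53.7 and 50.3 CPM in smooth muscle medium. At 0.5% oxygen it stood at 49.8, 53 and 51.5 CPM in chondrocyte, 42.7, 41.5 and 48.5 CPM in osteoblast and 41, 60.8 and 56 CPM in smooth muscle medium. Between oxygen levels Pcna fell in chondrocyte medium (-0.42 ± 0.10) and was not called in osteoblast medium (-0.19 ± 0.11), though called with scaling by library size alone (-0.35). Pcna in smooth muscle medium was at 0.11 ± 0.12, not called (called at 0.25 without replicate 1 at 0.5% oxygen), and was called lower with scaling by library size alone (-1.27). Rfc1 changed least of the loader, by -0.61, -0.87 and -0.57 log2 in chondrocyte, osteoblast and smooth muscle medium at 21% oxygen.

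Rfc4 departed from its partners in smooth muscle medium at 0.5% oxygen. It stood at 30.4, 34.4, 30.2 and 30.9 CPM in proliferating cells and 9.22, 8.16, 8.09 and 8.78 CPM in smooth muscle medium at 21% oxygen. At 0.5% oxygen it stood at 15.7, 17.1 and 18.7 CPM in proliferating cells and 60.6, 67.6 and 64.4 CPM in smooth muscle medium. Per library total, without the trimmed-mean factor, the mean was 33.2 in the latter group and 36.8 in proliferating cells at 21% oxygen, so the order of these groups depends on the scaling. The rise over smooth muscle medium at 21% oxygen was 7.83-fold (2.97 ± 0.11, edgeR adjusted p = 1.86e-12), or 1.60 log2 with scaling by library size alone. Within libraries, Rfc4 reads per Rfc5 read were 5.5, 3.96 and 4.86 there and 0.558 to 0.664 in smooth muscle medium at 21% oxygen, a ratio chosen after the values were seen and without a test. Of the exon bases of Rfc5, 10.7% lie opposite exons of Wsb2. In chondrocyte medium Rfc4 stood at 8, 7.4, 7.97 and 7.93 CPM and 5.67, 5.59 and 4.5 CPM, and in osteoblast medium at 4.09, 3.75, 3.73 and 3.85 CPM and 6.89, 9 and 8.48 CPM, where the groups do not overlap (1.08 ± 0.15). Of the exon bases of Rfc4, 12.7% lie opposite exons of Eif4a2, whose own level was 387 ± 11.7 CPM (mean ± SD, n = 4) in smooth muscle medium at 21% oxygen and 1129 ± 38.8 CPM (n = 3) at 0.5%, and the part of such reads in the Rfc4 counts was not tested.

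FEN1 trims and ligase 1 seals the fragments of the lagging strand, and both genes fell in all 6 comparisons with proliferating cells, though Lig1 in smooth muscle medium at 0.5% oxygen (-0.31 ± 0.09) was not called without proliferating replicate 1 (-0.28) and was -1.58 with scaling by library size alone. Lig1 stood at 126, 128, 132 and 128 CPM in proliferating cells at 21% oxygen and 80.6, 71.7 and 76.3 CPM at 0.5%. In chondrocyte medium it stood at 29, 31.9, 31.6 and 23.7 CPM at 21% oxygen and 18.3, 15.6 and 15.3 CPM at 0.5% (-0.83 ± 0.12). In osteoblast medium it stood at 37.9, 32.9, 32.4 and 26.5 CPM and 39, 35.9 and 34.6 CPM, which overlap (0.17 ± 0.12, not called). Lig1 in smooth muscle medium stood at 38.5, 36.1, 37.4 and 37.8 CPM and 55.4, 52.5 and 62.4 CPM, higher at low oxygen (0.66 ± 0.09) but lower with scaling by library size alone (-0.71). Lig1 was among the 10 members that were higher in osteoblast than in chondrocyte medium at 0.5% oxygen (1.15 ± 0.11). Fen1 was lower there (-0.71 ± 0.14), and 78.8% of its exon bases lie opposite the predicted gene Gm10143.

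The 4 nucleotide genes took different courses. Thymidine kinase (Tk1), which salvages thymidine, stood at 119.9, 129, 118 and 106 CPM in proliferating cells and 2.65, 1.54, 1.66 and 4.71 CPM in osteoblast medium at 21% oxygen. Its fall of 42.5-fold (-5.41 log2) was the largest of any member there with all libraries, but without replicate 4 it was -5.90 log2, less than those of Mcm10, Orc1 and Cdc6. Thymidylate synthase (Tyms), which makes thymidylate anew, fell from 68.5, 66.8, 67.3 and 66.6 to 5.66, 6.07, 5.39 and 9.13 CPM (9.84-fold). Tk1 rose with low oxygen in osteoblast medium (1.16 ± 0.38, edgeR adjusted p = 0.0303), a call lost without any one of 5 libraries, replicates 1, 2 and 3 at 21% oxygen and 1 and 3 at 0.5% (log2 0.95 to 1.17), or with scaling by library size alone (0.99). Tyms was at -0.24 ± 0.22 and not called.

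Rrm1, the large subunit of ribonucleotide reductase, stood at 327, 341, 328 and 276 CPM in proliferating cells at 21% oxygen and 183, 174 and 177 CPM at 0.5%, a fall of 1.72-fold. In osteoblast medium it stood at 168, 156, 165 and 189.7 CPM at 21% and 329.7, 323 and 336 CPM at 0.5% oxygen. The rise with low oxygen there was 1.94-fold (0.96 ± 0.09, edgeR adjusted p = 2.76e-05), to a level that with this scaling lay within the range of proliferating cells at 21% oxygen. In chondrocyte medium it stood at 123, 122, 135 and 94.4 CPM and 93.9, 79.9 and 79 CPM, and in smooth muscle medium at 106, 92.3, 98.8 and 93.6 CPM and 67.8, 71.7 and 83.9 CPM. Both fell at low oxygen, with log2 changes of -0.50 in chondrocyte medium (not called without replicate 3 at 0.5% oxygen, -0.46) and -0.33 in smooth muscle medium (-1.70 with scaling by library size alone).

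Rrm2, the small subunit that carries the radical and is limiting in S phase, rose with low oxygen in osteoblast medium more than any other member. In proliferating cells it stood at 161, 169, 162 and 136 CPM at 21% oxygen and 45.1, 43.1 and 38 CPM at 0.5%, a fall of 3.59-fold. In chondrocyte medium it stood at 128, 124, 143 and 93.1 CPM at 21% and 108, 109.8 and 103 CPM at 0.5% oxygen, which overlap. Chondrocyte medium thus differed little from proliferating cells at 21% oxygen (-0.29 ± 0.11, edgeR adjusted p = 0.0385), and the groups overlap. That call was lost without any 1 of 6 libraries (all but proliferating replicate 4 and chondrocyte replicate 3) and under 4 other settings. At 0.5% oxygen chondrocyte medium was 2.52-fold above proliferating cells. In osteoblast medium Rrm2 stood at 9.85, 8.52, 8.54 and 37.1 CPM at 21% oxygen and 137, 127 and 129.8 CPM at 0.5%. Replicates 1 to 3 at 21% oxygen lie lowest, replicate 4 lies between, and the groups do not overlap. The rise was 8.13-fold (3.02 ± 0.58, edgeR adjusted p = 0.00443), and 3.87 log2 without replicate 4. Smooth muscle medium had 23.4, 25.3, 21.6 and 20.6 CPM and 31.7, 26.7 and 36.1 CPM, higher at low oxygen (0.53 ± 0.13), but with scaling by library size alone the direction turned (-0.83).

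The ratio of Rrm2 to Rrm1 reads within each library shows how far the genes of the 2 subunits parted. It was 0.491, 0.495, 0.495 and 0.492 in proliferating cells and 1.04, 1.02, 1.06 and 0.986 in chondrocyte medium at 21% oxygen. In osteoblast medium at that oxygen level it was 0.0588, 0.0546, 0.0517 and 0.196, the lowest of any medium, and in smooth muscle medium 0.22, 0.274, 0.218 and 0.22. At 0.5% oxygen it was 0.247, 0.248 and 0.215 in proliferating cells, 1.15, 1.37 and 1.3 in chondrocyte, 0.416, 0.393 and 0.387 in osteoblast and 0.467, 0.373 and 0.43 in smooth muscle medium. The ratio was therefore lower at low oxygen in proliferating cells and higher in each of the 3 differentiation media, with no overlap between oxygen levels in any of the 4. It was chosen after the values were seen, has no test, and compares reads, not molecules, since the genes differ in length. Of the genes that departed from the other members, Rrm1 lies at chr7:102441695-102469771, Rrm2 at chr12:24708241-24714146, Cdt1 at chr8:122568015-122573554 and Rfc4 at chr16:23113943-23127737 (GRCm38, GENCODE vM21).

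**Figure D4:**
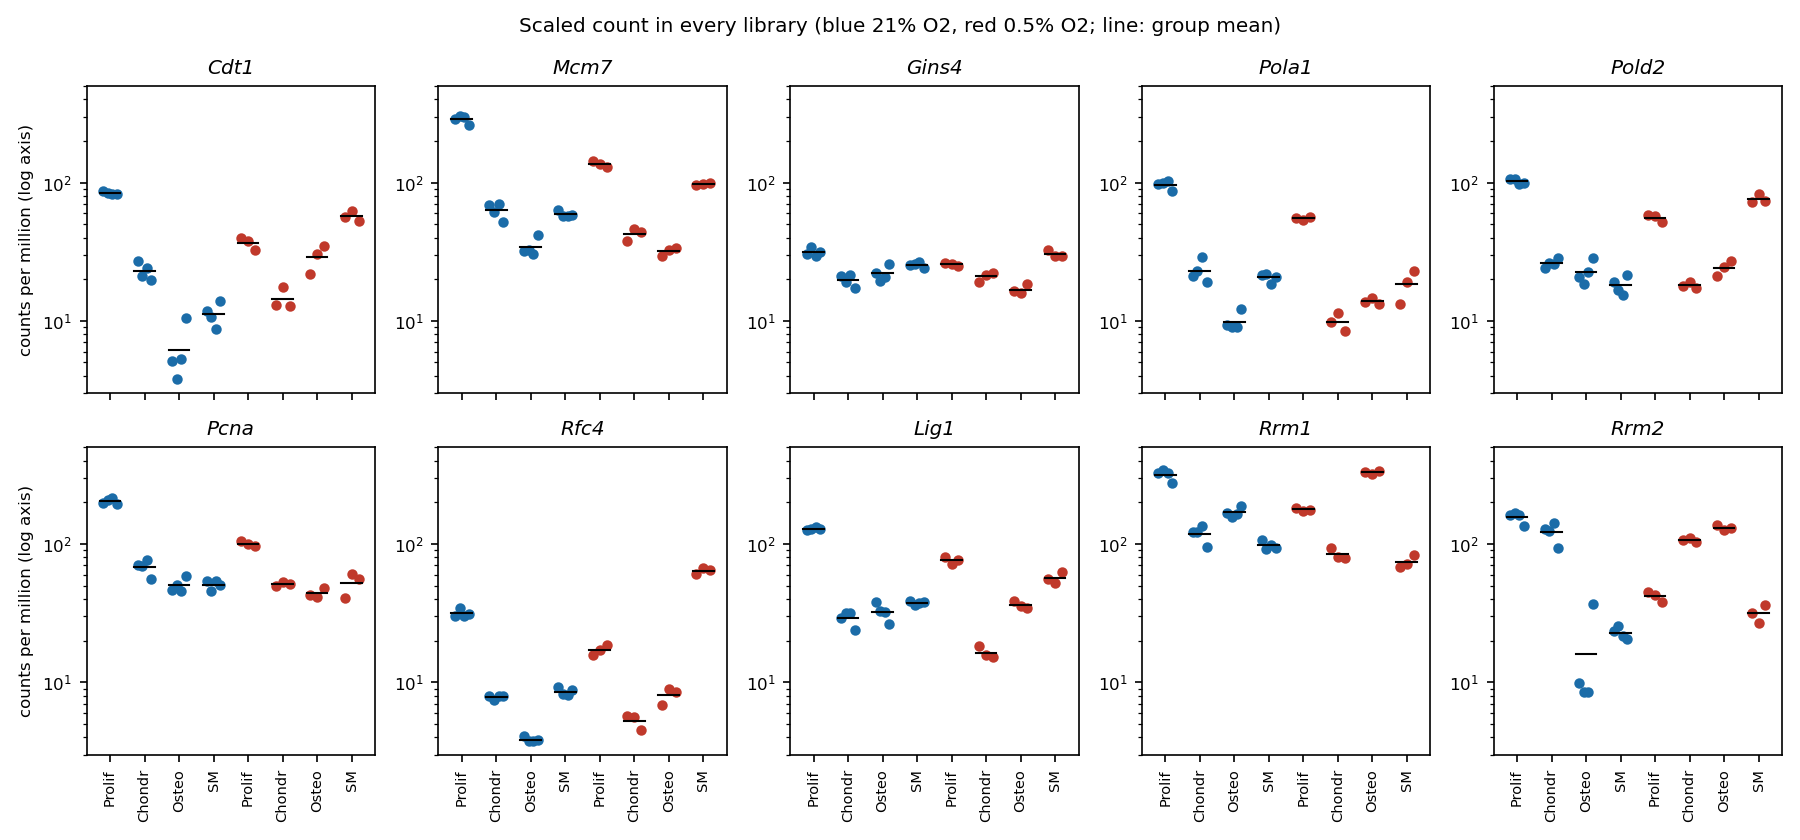
CPM on a log axis of 10 members in every library, in proliferation (Prolif), chondrocyte (Chondr), osteoblast (Osteo) and smooth muscle (SM) medium, with 21% oxygen in blue, 0.5% in red and a line at each group mean. Mcm7, Pola1 and Lig1 are highest in proliferating cells at 21% oxygen, Gins4 stays between 15.8 and 34.3 CPM, and Rrm1 and Rrm2 in osteoblast medium at 0.5% oxygen lie near the level of proliferating cells at 21% oxygen on this scale.

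**Figure D5:**
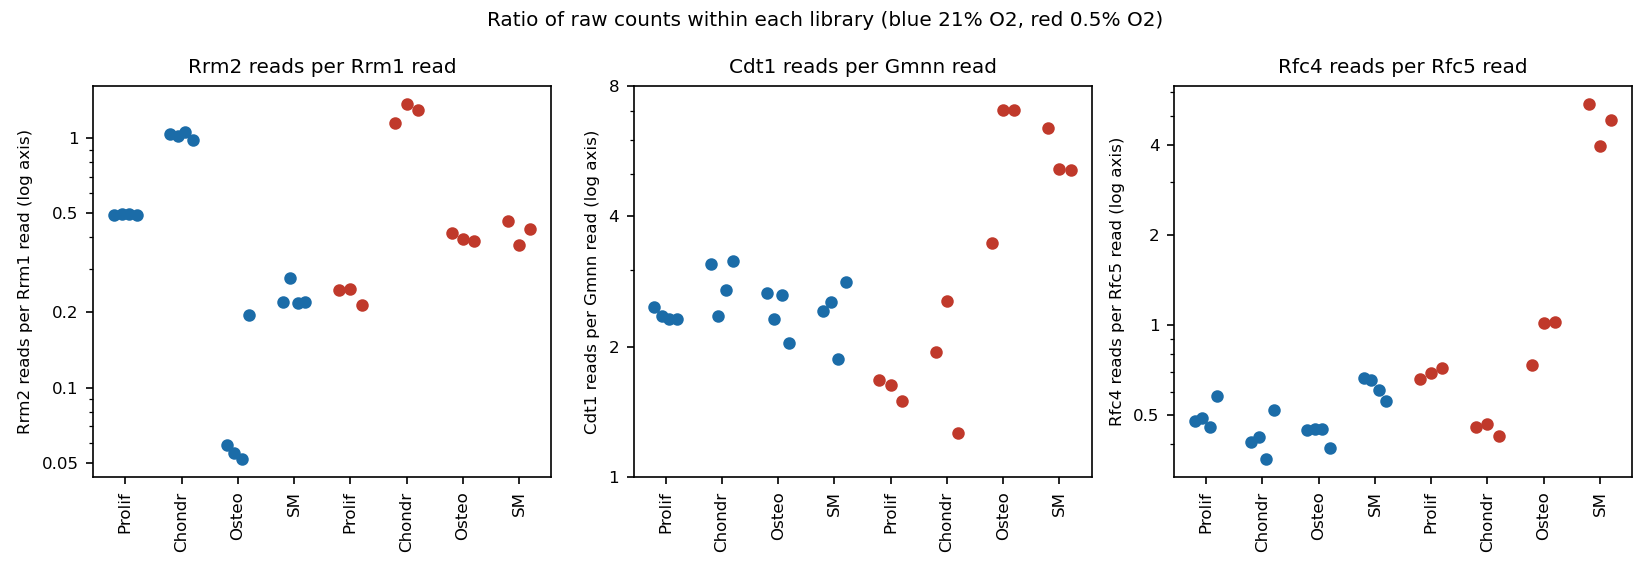
Ratio of raw read counts within each library, on log axes, for Rrm2 over Rrm1, Cdt1 over Gmnn and Rfc4 over Rfc5, with 21% oxygen in blue and 0.5% in red. In osteoblast medium the first ratio spans 0.0517 to 0.196 at 21% oxygen and 0.387 to 0.416 at 0.5%, and the second 2.04 to 2.65 and 3.46 to 7.05. The third spans 0.558 to 0.664 and 3.96 to 5.5 in smooth muscle medium.

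Genes outside the 39 were read from 4 further lists. These lists, too, were chosen with earlier results known, and their counts stand against the shares of all genes called in the same comparisons: 37.2%, 37.8% and 38.9% lower in chondrocyte, osteoblast and smooth muscle medium at 21% oxygen, and 32.3% lower in proliferating cells at low oxygen. Of 27 other replication genes, 26 fell in chondrocyte, 25 in osteoblast and 25 in smooth muscle medium at 21% oxygen, with medians of -1.35, -2.36 and -1.95. Uhrf1, which helps to copy DNA methylation, fell most in each (-2.65, -5.56, or -6.82 without osteoblast replicate 4, and -2.95), and Pold4, the smallest subunit of polymerase delta, rose in each (1.65, 1.62 and 1.48). Pold4 also rose with low oxygen in proliferating cells (2.14 ± 0.12), where 21 of the 27 fell. With low oxygen in osteoblast medium 7 of 27 rose and 2 fell, a share of rises near the 27.0% of all genes, led by Dbf4, the activating subunit of the CDC7 kinase (2.03 ± 0.13), and Ticrr, which helps to fire origins (2.03 ± 0.46, or 2.71 without replicate 4 at 21% oxygen). Without that library 14 rose and 2 fell, Uhrf1 being highest (3.11), and with scaling by library size alone 4 rose and 5 fell.

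Of 18 other genes of nucleotide synthesis, 15 fell in each of the same 3 media at 21% oxygen. Samhd1, which breaks down deoxynucleotides, rose in osteoblast medium (1.25 ± 0.08). At 0.5% oxygen Samhd1 rose in osteoblast medium over proliferating cells too (2.03 ± 0.07). Between oxygen levels in proliferating cells 15 of 18 fell, led by Shmt1 (-2.28 ± 0.10), an enzyme of folate metabolism. Between oxygen levels in osteoblast medium 7 rose and 4 fell, against 27.0% and 27.3% of all genes (4 and 6 with scaling by library size alone), with deoxycytidine kinase (Dck) rising most (2.46-fold).

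Of 17 regulators of the E2F and RB families and their cyclins, 15, 13 and 14 fell in chondrocyte, osteoblast and smooth muscle medium at 21% oxygen. E2f2, an activator, had the largest falls (-3.90, -6.68 and -4.40 log2). Rbl2, an RB relative known from resting cells, rose by 0.44, 1.83 and 1.42, the first not called with scaling by library size alone (0.088). With low oxygen in proliferating cells 12 fell, led by cyclin E1 (Ccne1, -2.35 ± 0.14), and Rbl2 rose (0.78 ± 0.08). Between oxygen levels in osteoblast medium 5 of 16 rose and 0 fell, against 27.0% and 27.3% of all genes. Without replicate 4 at 21% oxygen 8 rose, and with scaling by library size alone 3 rose and 1 fell.

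The 10 genes of mitosis were read for comparison. All 10 fell in each of the 3 media at 21% oxygen, with medians of -1.75, -5.23 and -2.37. With low oxygen in proliferating cells 8 of 10 fell, with a median of -0.41 beside -1.03 for the 39 members. With low oxygen in osteoblast medium 10 of 10 rose (27.0% of all genes), with a median of 2.52 beside 0.25 for the members. Their summed level was 50 to 92 CPM in osteoblast medium at 21% oxygen and 320.3 to 408 CPM at 0.5%, so the libraries do not overlap. In proliferating cells it was 1819 to 2294 CPM and 1548 to 1627 CPM. The difference between the 2 lists was not tested.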

How the data were processed

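Polyadenylated RNA of 28 libraries was sequenced from stranded libraries, per the labels. The authors deposited raw read counts per gene, made with HISAT2 2.0.5, StringTie 1.3.3b and featureCounts 1.5.0-p3 on mm10, per the submitters' processing notes, which give no role or order. The annotation and strand setting are not given in the sources used here. The authors' deposited tables of log2 fold changes were used for symbols and 1 comparison of values, and 70 columns of normalised values in them were not used. Counts were fitted with edgeR 4.0.16 (R 4.3.3): TMM scaling, filterByExpr (at least 10 counts in the smallest group's number of libraries, 15 in all), robust glmQLFit and glmQLFTest, two-sided, on the libraries of each of 12 comparisons and 4 interactions, with Benjamini-Hochberg adjustment over all genes tested and calls at 0.05. SE is the log2 fold change over the root of F. DESeq2 1.42.0 and limma 3.58.1 were alternatives, beside other scalings, filters, a fit of all libraries and leaving out each library, and the edgeR fits were tested on simulated data. All 39 members passed the filter in every comparison. Named genes were the highest member of each role with every library given, members with the largest, smallest, opposite or no called change, and up to 2 genes each way of the other lists. Library values of other members were added after theirs were seen. Members and lists were chosen with earlier results of these data known. The labels do not say that replicates are separate cultures, so p-values measure only the spread between these libraries. No 2 replicates agreed within sampling noise (chi-square per degree of freedom at least 2.89). Opposite-strand exons also overlap Rfc2 (15.1% of its exon bases), Orc1 (10.8%), Mcm7 (7.25%), Orc6 (6.93%), Cdc45 (5.96%) and Lig1 (5.79%), and Pole and Tk1 by less, beside the members for which the text gives it.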

Additional observations from a re-analysis of the deposited data

Results flagged for a closer look

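In groups of 4 libraries, 44 sets of values were examined for 1 library far from the others with Dixon's ratio, and 5 were marked; chance marks about 1 in 20. Replicate 4 of osteoblast medium at 21% oxygen was marked for the median member (-2.58 log2 relative to proliferating cells at 21% oxygen), for Pola1 (12.2 CPM) and for Rrm2 (37.1 CPM), in each case as the highest of its group. Replicate 2 of chondrocyte medium at 21% oxygen was marked for Rfc4 (7.40 CPM, the lowest) and replicate 1 of smooth muscle medium at 21% oxygen for Mcm7 (63.6 CPM, the highest).

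The change from proliferating cells differed between oxygen levels by an edgeR interaction test for 21 members in chondrocyte, 34 in osteoblast and 36 in smooth muscle medium, and the effect of low oxygen differed between osteoblast and chondrocyte medium for 24. In chondrocyte medium the differences named were 1.72 (Orc2), 1.66 (Rrm2), 0.47 (Cdt1), -0.68 (Pole2) and -0.46 (Pola1) on the log2 scale. The call was lost without any 1 of 6 libraries for Pola1 and any 1 of 3 for Cdt1. In osteoblast medium they were 4.90 (Rrm2), 3.40 (Cdt1), 2.82 (Mcm10), 1.94 (Rfc4) and 1.78 (Rrm1). Without replicate 4 at 21% oxygen Rrm2 was at 5.76 and Mcm10 at 4.25. In smooth muscle medium they were 3.83 (Rfc4), 3.58 (Cdt1), 3.00 (Pold2), 2.42 (Rrm2) and 0.49 (Rrm1). With scaling by library size alone fewer members were called there, the sign of Rrm1 turned and the other differences named were smaller. Between osteoblast and chondrocyte medium the differences named were 3.22 (Rrm2), 2.89 (Cdt1), 1.70 (Pola1), 1.65 (Rfc4), 1.45 (Rrm1) and -0.48 (Gins4, whose call was lost without any 1 of 5 libraries). Rrm2 was at 4.05 without osteoblast replicate 4 at 21% oxygen.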

How the results depend on the processing

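Of 568 alternative values of the 32 summary results (members called and their median, per comparison), 554 stayed within 1.5 times the count or 1 SD of the replicates of the median. Scaling by library size alone turned the member median of smooth muscle medium between oxygen levels to -0.83, and moved medians to -2.14 (chondrocyte, 21%), -1.86, -1.74 and -1.86 (chondrocyte, osteoblast, smooth muscle, 0.5%), -1.10 (oxygen, proliferating), -0.14 (osteoblast against chondrocyte, 0.5%) and 0.19 (interaction, smooth muscle). It turned 13 named values, all involving smooth muscle medium at 0.5% oxygen. Against proliferating cells these were Cdt1 -0.52, Gins4 -0.91, Pold2 -0.69, Prim1 -0.63, Gins2 -0.97 and Pold1 -1.21. Against 21% oxygen they were Mcm7 -0.58, Gins4 -1.05, Pcna -1.27, Lig1 -0.71 and Rrm2 -0.83, and in the interaction Rrm1 -0.84 and Pold3 -1.04. The replicate block, on libraries 1 to 3, gave 25 called members for oxygen in osteoblast medium, and medians of -1.21 (osteoblast against chondrocyte, 21%) and 1.20 (its interaction with oxygen); it leaves out replicate 4 of each group at 21% oxygen. Replicate numbers did not pair libraries (residual correlations of same-numbered libraries -0.151 to 0.074). Leaving out 1 library gave 11 to 25 called members for oxygen in osteoblast medium (25 without replicate 4 at 21% oxygen) and medians of -1.58 to -1.41 for chondrocyte medium at 0.5%. Of 3817 alternative values of 226 named member results, 3657 kept call and direction, 71 lost the call and 76 gained one; 71 of these changes, in 36 results, came from leaving out 1 library. The cause was not tested. In 387 of 390 values the sign was that of the authors' deposited tables. Low counts limit Orc1, Cdc6 and Mcm10 in osteoblast medium at 21% oxygen, where 1 member had a library with 0 counts.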
